A study of Mus musculus with 8 samples.

Results

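The genes described here encode the proteins of the cytosolic ribosome, measured by RNA-seq in interscapular brown adipose tissue (BAT) of mice. They were taken by symbol: names that start with Rpl or Rps followed by a digit, the P stalk genes Rplp0, Rplp1 and Rplp2, and Rpsa. The 10 names of the Rps6k kinases and 267 names with -ps, the mark of a pseudogene, were left out. This gave 92 of the 33641 genes. Of these, 77 encode subunits of the ribosome core, 31 in the small subunit, 43 in the large subunit and 3 in the P stalk. A further 8 are paralogs of core genes, 5 are retrocopies that the annotation (GENCODE M21, build GRCm38) classes as processed pseudogenes, and Rpl7l1 and Rps19bp1 match by name without being subunits of the mature ribosome.

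The ribosome has a small subunit, which reads the mRNA, and a large subunit, which joins amino acids into protein. Each ribosome needs a single set of its proteins (the acidic stalk proteins are present in more than a single copy), so the genes are expressed at high and broadly matched levels in nearly every cell. Most of their mRNAs start with a run of pyrimidines, the TOP motif, through which mTOR signalling and LARP1 set how much of them is translated. HuR, encoded by Elavl1, is a protein that binds mRNAs and changes their stability and translation.

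The libraries came from C57BL/6 mice aged 28 weeks. The 3 libraries labelled WT (A7, A8 and A12) are wild-type; in the study's methods controls are littermates of mixed genotype, some with the adiponectin-driven Cre and no floxed Elavl1 allele, others with 1 or both alleles floxed and no Cre. The label of the other 5 (A24, A25, A26, A29 and A31), HuR KO, stands for a deletion of floxed Elavl1 by Cre under the adiponectin promoter, which acts in adipocytes, so that other cells of the tissue keep the gene. The diet of the sequenced mice is not in the labels. The labels do not state that each library is a separate animal, so p-values measure the spread between these libraries, which may be technical. The deposited counts totalled 6.06e+07, 5.18e+07 and 5.07e+07 for A7, A8 and A12. They totalled 1.83e+07, 1.76e+07, 6.75e+07, 5.09e+07 and 5.87e+07 for A24, A25, A26, A29 and A31.

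Elavl1 itself was examined first, as a check of the labels. Its level in CPM, counts scaled to library size with TMM factors, was 50.6, 48.0 and 49.2 in the libraries labelled WT. It was 61.9, 47.3, 43.4, 61.3 and 61.2 in A24, A25, A26, A29 and A31. The groups overlapped, and the log2 fold change, HuR KO minus WT throughout, was 0.16 (SE 0.16; adjusted p = 0.667, edgeR quasi-likelihood test). The total of Elavl1 was thus not lower in the libraries labelled HuR KO. The study presents its deletion by Western blots of HuR protein from control and knockout mice, among them blots of BAT. RNA summed over the gene does not measure that protein. A figure legend of the study also gives the group sizes the other way round, 5 control and 3 knockout samples of BAT. The study reports lower expression of nearly all the calcium transport genes it shows in the knockout. It also lists muscle contraction terms as enriched among its changed genes. In the skeletal muscle list used below, 16 of 16 genes had a negative log2 fold change, carried by A7 and A8; A12, labelled WT, lay near the HuR KO libraries and below A31. The groups here follow the labels.

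The tissue label was checked against 11 markers of brown adipocytes, all detected in every library, with Fabp4 the most abundant. Ucp1, the uncoupling protein of brown fat, stood at 4843, 11438 and 9483 CPM in A7, A8 and A12. It stood at 10703, 4251, 7636, 7213 and 9475 CPM in A24, A25, A26, A29 and A31. Libraries of both labels were high, and the groups overlapped. Skeletal muscle markers set 3 libraries apart: the summed CPM of 16 such genes was 4046 in A7, 2534 in A8 and 452 in A31, against 56.5 in A12 and 25.4 to 46.9 in A24, A25, A26 and A29. The most abundant was Myh4, a fast myosin heavy chain, and 9 of the 16 were at 0 in at least 1 library. A24 and A25 stand apart by their depth, and A8 by its TMM factor, 0.763, the lowest of the 8.

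The members took up about 1 percent of all counts. Their share was 0.912%, 1.20% and 0.881% for A7, A8 and A12. The HuR KO libraries A24, A25, A26, A29 and A31 had 1.41%, 1.33%, 0.915%, 1.19% and 1.30%. The mean was 0.996% ± 0.173 (SD, n = 3) in WT and 1.23% ± 0.193 (SD, n = 5) in HuR KO. A26 and A29 lay within the range of the WT values, and A8 lay among the HuR KO values. Counting error is small beside this: the 95% Wilson interval of A25, the library with the fewest counts, ran from 1.33% to 1.34%. Such intervals cover counting error only. After TMM scaling the summed level was 11314 ± 3768 CPM in WT (SD, n = 3) and 11559 ± 1932 CPM in HuR KO (SD, n = 5). In bulk tissue, fewer cells of a type and less RNA per cell cannot be told apart.

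The genes of the core moved together from library to library, with high and low libraries under both labels. Taken as the deviation of log2 CPM from each gene's mean over the 8 libraries, the median of the 77 core genes was -0.36, 0.45 and -0.26 for A7, A8 and A12. The HuR KO libraries A24, A25, A26, A29 and A31 had 0.39, -0.03, -0.29, 0.02 and 0.04. The same median over all 14851 genes tested lay between -0.02 and 0.02, which follows largely from TMM scaling, since it centres the bulk of genes. After TMM scaling, A8, labelled WT, and A24, labelled HuR KO, were thus the high libraries, and A7, A12 and A26 the low ones. The low TMM factor of A8, 0.763, raises its CPM. As a share of unscaled counts the core took 0.888%, 1.16% and 0.855% in A7, A8 and A12. In A24, A25, A26, A29 and A31 it took 1.37%, 1.30%, 0.892%, 1.16% and 1.26%, so A8 was not among the highest. The highest level of a core gene fell in A8 for 42 genes and in A24 for 32, together 96.1% of the 77 against 30.4% of all genes. The lowest fell in A7, A12 or A26 for 72 core genes, 93.5% against 39.0% of all genes.

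**Figure D1:**
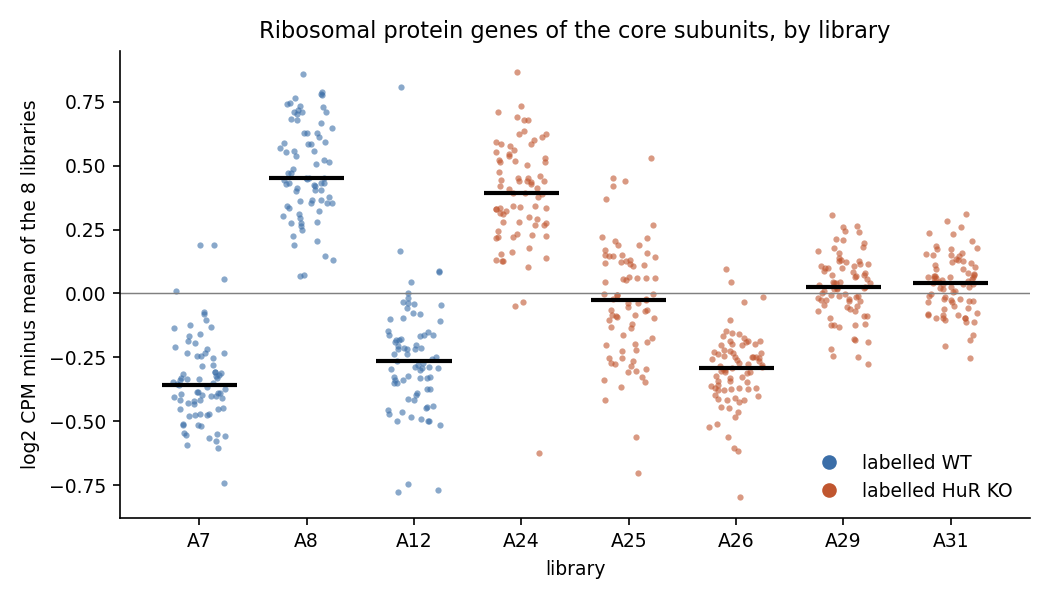
Deviation of log2 CPM from the mean of the 8 libraries for each of the 77 core genes (points) in each library, with the median as a bar; blue libraries are labelled WT and orange ones HuR KO. With TMM scaling, the medians of A8 (0.45) and A24 (0.39) are the highest, 1 from each group.

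The library pattern was smaller once each library's trend on transcript length was removed. Core genes have short mRNAs, with a median of 733 bases in the annotation against 2825 for all genes tested. The median SD within groups of a core gene was 0.37 on the log2 scale, against 0.35 for all genes, and 0.21 with the length trend removed. The library medians then ran from -0.21 in A7 to 0.22 in A8. Removing the trend on GC content left the SD of a core gene at 0.39. The SD of all genes with either trend removed is not given here. Whether the drop with length is particular to the core was therefore not tested.

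No member was called between the labels. At an adjusted p of at most 0.05 and a fold of at least 1.5, edgeR's quasi-likelihood test called 0 of the 88 members that passed the filter on low counts, against 0.707% of all genes. The 4 members that did not pass were Rpl10l, Rpl6l, Rps3a2 and Rps3a3, a testis paralog and retrocopies with at most a trace of counts here. With any fold the count was also 0, against 0.707%. At an adjusted p of at most 0.1 and any fold it was 2, against 3.31%. At an unadjusted p under 0.05, 1 member had a higher value in HuR KO (Rplp2; 7.64% of all genes) and 3 a lower one (Rpl3l, Rpl5 and Rps24; 9.41%). DESeq2's Wald test called 2 members, Rpl3l and Rpl5, against 5.54% of all genes, and edgeR's likelihood ratio test called the same 2, against 4.41%. The voom method of limma called 0, against 1.06% of all genes.

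The fold changes of the core were narrow. The median log2 fold change was 0.08 over the 77 core genes and 0.07 over the 88 members tested, against 0.00 over all genes tested. The middle 50 percent of core genes lay between -0.09 and 0.15, against -0.26 and 0.28 for all genes. The median SE of a core gene was 0.25, so a missing call does not show that a gene did not differ. Of the core genes 44 had positive and 33 negative values, and 76 lay within 1.5-fold. These sign counts depended on the fit: voom gave 67 positive and 10 negative values (median 0.18), and the muscle covariate also 67 and 10 (median 0.19). With scaling to total counts only, the median of all genes was 0.23 and that of the core 0.36, which is 0.13 above it; 73 core values were then positive and 4 negative.

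The sign of the core median changed with single libraries. It was negative without A7 (-0.07; 53 of 77 values negative), A12 (-0.04; 48 of 77) or A24 (-0.07; 50 of 77). Without A25, A26, A29 or A31 it was 0.07, 0.16, 0.09 and 0.07. Without A8 it was 0.37, with 74 of 77 values positive, and 18 members were higher in HuR KO at an unadjusted p under 0.05, against 10.1% of all genes. The lowest adjusted p of a core gene in that fit was 0.0995. Without A24 and A25, the libraries of low depth, it was -0.09. Leaving out both A8 and A24 was tried after their high values for these genes had been seen. The core median was then 0.26, with 72 of 77 values positive. In that fit 0 of 88 members were called, against 1.33% of all genes, and 15 were higher in HuR KO at an unadjusted p under 0.05, against 11.3%.

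**Figure D2:**
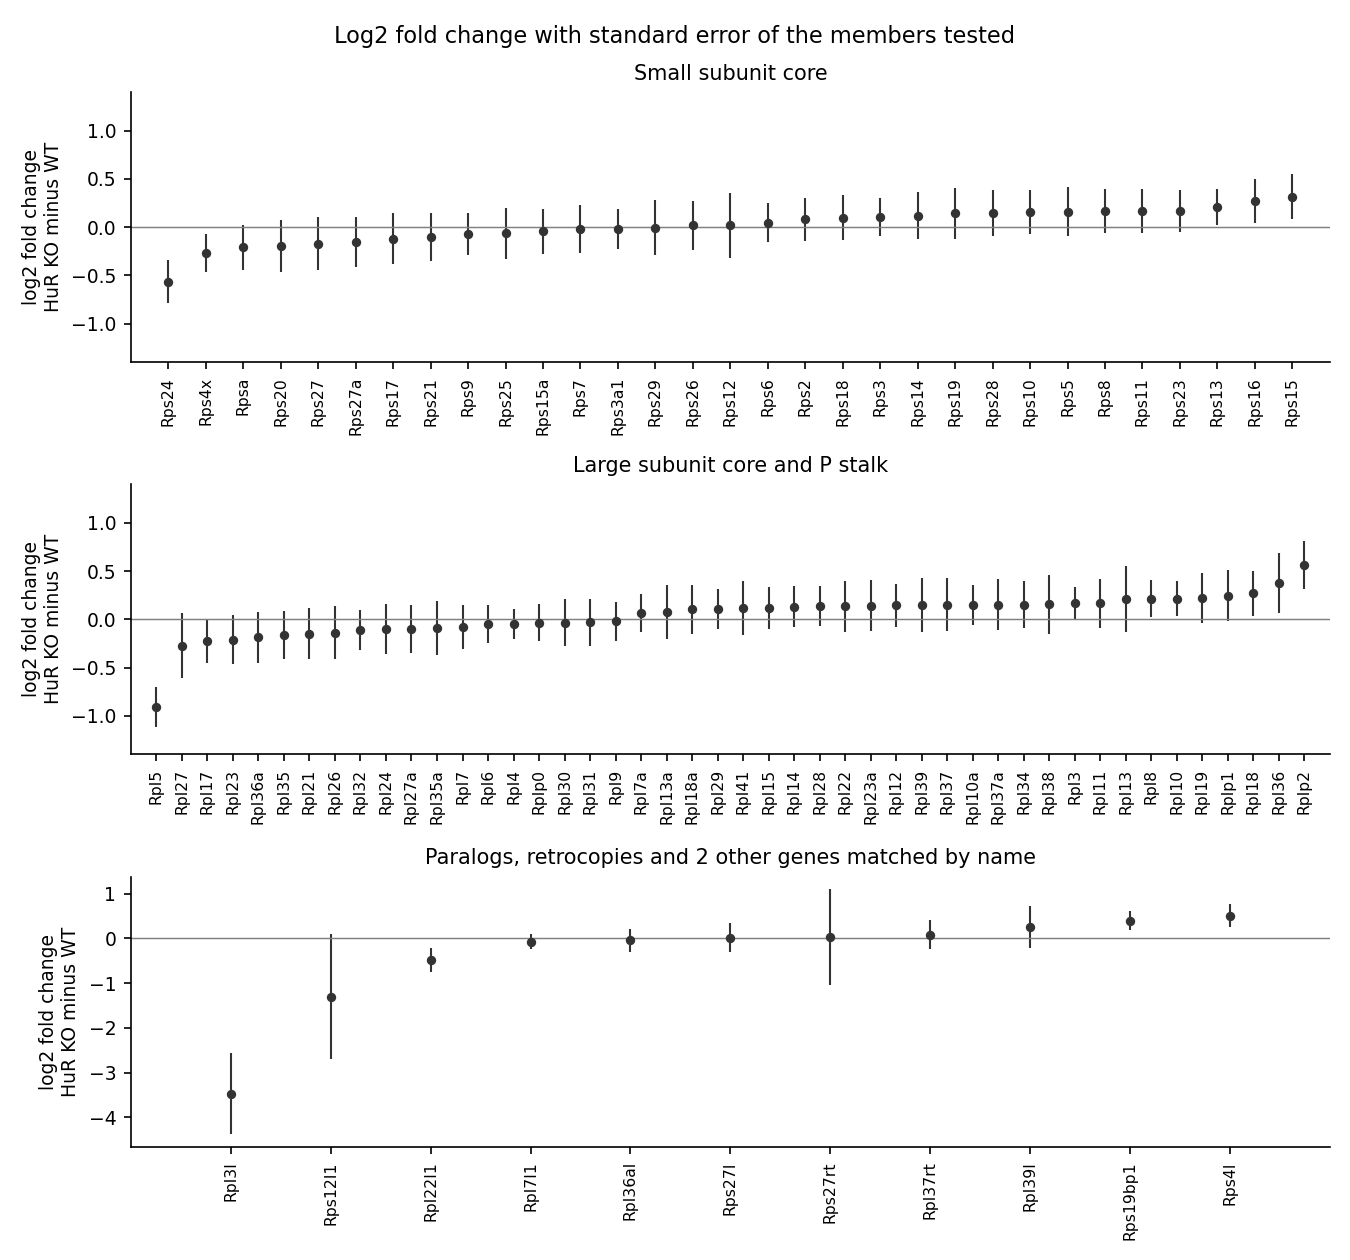
Log2 fold change, HuR KO minus WT, with a standard error derived from edgeR's F statistic, for the 88 members tested (points), by class. The lowest panel has a wider axis. Most core genes lie close to 0, with Rpl5 (-0.91), Rps24 (-0.57) and Rplp2 (0.56) farthest from it.

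In the small subunit the median log2 fold change was 0.02 over 31 genes. Rps24, a small subunit protein mutated in some families with Diamond-Blackfan anaemia, had the lowest unadjusted p of these. Its level was 239.6, 418.2 and 244.3 CPM in A7, A8 and A12. It was 222.8, 181.3, 156.0, 227.6 and 225.7 CPM in A24, A25, A26, A29 and A31. All 3 WT values lay above all 5 HuR KO values, by a narrow gap, with A8 far above the rest. Of the members, Rps24 and Rpl5 were the 2 with lower HuR KO values and no overlap (6.09% of all genes), and none had higher values without overlap (5.37%). The log2 fold change of Rps24 was -0.57 (SE 0.22; adjusted p = 0.229, edgeR). It was -0.25 without A8.

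With the length trend removed, Rps24 passed the threshold (log2 fold change -0.64, SE 0.14; edgeR adjusted p = 0.0483), as did Rpl5. Those were the 2 members called in that fit, against 2.13% of all genes. Over the 30 alternatives tried for Rps24 the adjusted p ran from 0.0483 to 0.658, the latter without A7, A8 and A31, where A12 is the only WT library; the next highest was 0.636, with the muscle covariate. Rps24 (chr14:24487125-24496959) has a pair of coding transcripts in the files that differ in length. The shorter, of 468 bases, held 87.8% of its counts, with 267 ± 83.5 CPM in WT (SD, n = 3) and 175 ± 27.8 CPM in HuR KO (SD, n = 5). The longer, of 519 bases, stood at 33.8 ± 18.3 and 27.7 ± 4.99 CPM.

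The next small subunit genes by p were not past the threshold. Rps15, which takes part in export of the small subunit from the nucleus, had a log2 fold change of 0.32 (SE 0.23; edgeR adjusted p = 0.537), and from 0.17 without A12 to 0.61 without A8 on leaving out 1 library. Rps4x, the X-linked form of S4, had -0.27 (SE 0.20; adjusted p = 0.539), and from -0.42 without A7 to -0.08 without A8. Rps29, a zinc-binding protein of the subunit head named for its level, had -0.01 (SE 0.29; adjusted p = 0.993).

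In the large subunit, with a median of 0.11 over 43 genes, Rpl5 had the lowest p of all members. Rpl5 and Rpl11 bind 5S rRNA as a particle that joins the large subunit and, when free, inhibits Mdm2. The level of Rpl5 was 9.07, 13.0 and 13.9 CPM in A7, A8 and A12. It was 5.13, 5.36, 6.13, 8.26 and 6.88 CPM in A24, A25, A26, A29 and A31. The highest HuR KO library, A29, lay just under the lowest WT library, A7. The log2 fold change was -0.91 (SE 0.21, edgeR adjusted p = 0.0772), lower in 5 of 5 HuR KO libraries than in any WT library (6.09% of all genes). Over the 30 alternatives its adjusted p ran from 0.00513 to 0.969. The log2 fold change ran from -1.52, with the top transcript only, to 0.11, with copies of the gene added and the GC trend removed. The coding transcript of 2045 bases stood at 8.89 ± 2.09 CPM in WT (SD, n = 3) and 3.08 ± 1.11 CPM in HuR KO (SD, n = 5). A retained-intron transcript of 1024 bases stood at 1.24 ± 0.293 and 1.31 ± 0.387 CPM, and another of 815 bases at 1.46 ± 0.487 and 1.20 ± 0.464 CPM.

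Most of the counts of Rpl5 and its copies were assigned to the copies in the deposited values. Gm15500, annotated as a transcribed processed pseudogene (chr7:114705217-114706235), has a transcript of 1019 bases that differs by 1 edit from a stretch of the Rpl5 transcript of 2045 bases. Both hold the first 60 coding bases of Rpl5 without a difference, shown because reads from this stretch fit either gene. The stretch in Gm15500 is chr7:114706104-114706163 on the minus strand of GRCm38; Rpl5 itself lies on the plus strand at chr5:107900502-107909005. The capitals mark the start codon of Rpl5.
Rpl5 and Gm15500: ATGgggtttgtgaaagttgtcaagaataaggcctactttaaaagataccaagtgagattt

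Gm15500 stood far above Rpl5 itself. Its level was 115.9, 189.9 and 142.5 CPM in A7, A8 and A12. It was 187.7, 144.8, 133.1, 132.1 and 165.3 CPM in A24, A25, A26, A29 and A31. The groups overlapped, with A8 and A24 high as for the core genes (log2 fold change 0.03, SE 0.20; edgeR adjusted p = 0.954). Summed with its 4 copies, which held 94.4% of the combined counts, Rpl5 stood at 161.4 ± 39.2 CPM in WT (SD, n = 3) and 159.0 ± 23.1 CPM in HuR KO (SD, n = 5). The log2 fold change of the sum was -0.02 (SE 0.19; adjusted p = 0.966), and 0 of 88 members were called with copies added, against 0.703% of all genes. The part that the division of reads played in the values of Rpl5 alone was not tested.

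**Figure D3:**
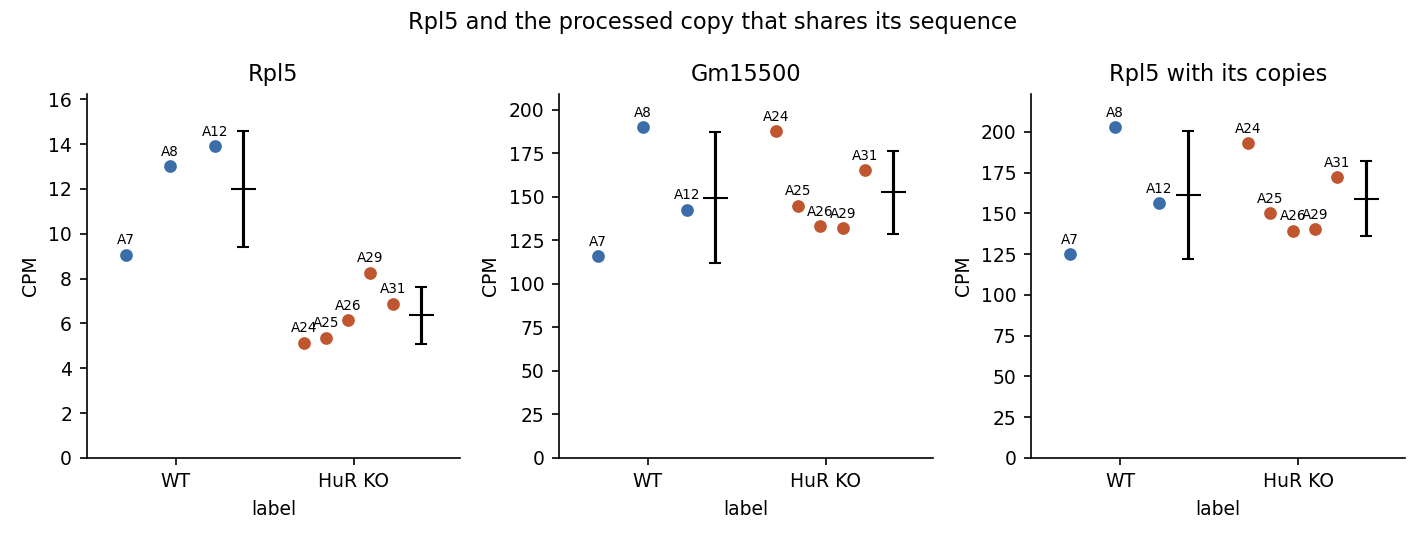
CPM of Rpl5, of its processed copy Gm15500 and of Rpl5 with its 4 copies, in each library (points), with mean and SD (bars) by label. Rpl5 alone separates the groups, with a mean of 6.35 in HuR KO below the lowest WT value of 9.07, and the sum does not.

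Other members shared their counts with copies in the same way. Copies here are the 276 annotated genes of which over 50 percent of the 31-base words occur in a member's transcripts. For 8 core genes such copies held over 50 percent of the combined counts, and for 22 over 10 percent. Rpl12, a protein at the base of the P stalk, had 93.7% of the combined counts in copies, led by Gm10275 on chr10. Rps12 had 90.9%, led by Rps12-ps3, whose 494 bases occur in an Rps12 transcript without a difference. Rpl27 had 89.0%. With copies added the log2 fold changes were 0.11 (SE 0.27) for Rpl12, 0.06 (SE 0.23) for Rps12 and 0.08 (SE 0.24) for Rpl27. The values of these genes alone are therefore uncertain.

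Rpl11, the partner of Rpl5, had copies with 11.0% of the combined counts. Its level was 190.9 ± 80.5 CPM in WT (SD, n = 3) and 214.3 ± 35.5 CPM in HuR KO (SD, n = 5), with overlapping groups (log2 fold change 0.17, SE 0.25; edgeR adjusted p = 0.786). Among 3 proteins that line the exit tunnel, Rpl4 had a log2 fold change of -0.04 (SE 0.16), Rpl17 -0.22 (SE 0.23) and Rpl39 0.15 (SE 0.28). Rpl36, another large subunit protein among the 10 members with the lowest p, had 0.38 (SE 0.31; adjusted p = 0.591), and from 0.15 without A12 to 0.83 without A8.

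The P stalk recruits and activates the elongation factors. Rplp2, an acidic stalk protein, stood at 187.3, 287.7 and 151.5 CPM in A7, A8 and A12. It stood at 400.4, 348.2, 241.6, 265.8 and 285.8 CPM in A24, A25, A26, A29 and A31. A8 lay among the HuR KO values, and A7 and A12 lay below all of them. The log2 fold change was 0.56 (SE 0.25; adjusted p = 0.282, edgeR), 0.87 without A8 and 0.38 without A12. Its adjusted p ran from 0.0878, without A8 and A24, to 0.611, without A12, over 30 alternatives. Rplp1, its partner, had 0.25 (SE 0.27, edgeR adjusted p = 0.692). Without A8, Rplp1 was among the 18 members higher at an unadjusted p under 0.05 (10.1% of all genes). Rplp0, the stalk base on which both sit, had -0.04 (SE 0.19; adjusted p = 0.942).

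Of the paralogs, Rpl3l departed from the library pattern of the core, and as a list they had it, with a median deviation of 0.80 in A8 and 0.48 in A24. Rpl3l, which takes the place of Rpl3 in striated muscle, stood at 8.76, 9.39 and 0.209 CPM in A7, A8 and A12. It stood at 0.677, 0.142, 0.326, 0.303 and 1.23 CPM in A24, A25, A26, A29 and A31. A7, A8 and A31, the libraries with the highest muscle markers, were also the 3 with the highest Rpl3l, and A12 lay among the HuR KO values. The log2 fold change was -3.47 (SE 0.91; adjusted p = 0.0976, edgeR). Without A12 Rpl3l was called (-4.03; adjusted p = 0.0124), as the only member, against 1.24% of all genes. With the muscle markers as a covariate it was -0.41 (SE 0.73), with 0 of 88 members called against 0.101% of all genes. Without A7, A8 and A31 it was 0.74 (SE 0.94), a fit in which A12 is the only WT library and the spread comes from the HuR KO libraries alone. Over the 29 alternatives with a value for it the adjusted p ran from 0.00697 to 0.858. In the skeletal muscle list 16 of 16 genes had negative log2 fold changes, 13 at an unadjusted p under 0.05 (9.41% of all genes). Past the threshold was 1 gene (0.707% of all genes), the myosin light chain Myl1 (-2.28, SE 0.43, edgeR adjusted p = 0.0474). Myl1 was also called without A12 (-2.71) and not without A7 (-2.03), A8 (-1.98), A24 (-2.33), A25 (-2.21), A26 (-2.13), A29 (-2.36) or A31 (-2.43). DESeq2 called 3 genes of that list (5.54% of all genes), the likelihood ratio test 4 (4.41%) and voom 0 (1.06%).

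**Figure D4:**
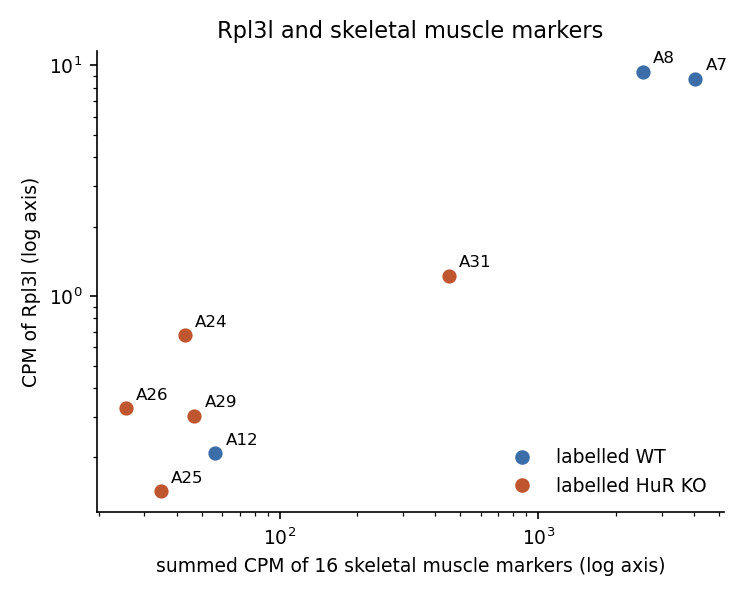
CPM of Rpl3l against the summed CPM of 16 skeletal muscle markers in each library, both on log axes. A7, A8 and A31 are the highest on both axes, and A12, labelled WT, lies with the HuR KO libraries.

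No other paralog had an unadjusted p under 0.05. Rpl22l1, a paralog of Rpl22 known from lymphocyte development, stood at 12.7 ± 4.17 CPM in WT (SD, n = 3) and 9.13 ± 2.82 CPM in HuR KO (SD, n = 5; log2 fold change -0.48, SE 0.27; edgeR adjusted p = 0.391; from -0.69 without A24 to -0.17 without A8). Rps4l, annotated as a transcribed processed pseudogene, had 0.51 (SE 0.26; adjusted p = 0.360). Rpl36al had -0.05 (SE 0.25), Rps27l, a p53-induced paralog, 0.02 (SE 0.32) and Rpl39l, known from testis, 0.26 (SE 0.47). Rps27rt, a retrogene of Rps27, reached at most 0.818 CPM in any library and at 0 in A12, A24 and A25. Rps19bp1, a nucleolar partner of Rps19 also known as a SIRT1 regulator, had 0.39 (SE 0.21; adjusted p = 0.377; from 0.23 without A12 to 0.61 without A8), and Rpl7l1, an assembly factor, had -0.07 (SE 0.16; adjusted p = 0.853).

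Levels between genes were compared per length, as TPM, counts divided by transcript length and scaled to the same sum in each library. The highest members by mean TPM over the 8 libraries were Rps29 (721), Rpl23a (692), Rps24 (680), Rpl41 (664), Rplp2 (643) and Rplp1 (609). The lowest that were tested were Rps27rt (1.28), Rpl3l (2.61), Rpl39l (4.36) and Rpl12 (7.95). The core ranged from 7.95 to 721 TPM with a median of 249, and 5 core genes (Rpl12, Rpl5, Rpl27, Rps12 and Rpl10a) lay under 100 TPM. With copies added, 0 lay under 100 TPM: the core then ranged from 101 (Rpl37) to 763 (Rps29), with Rpl12 at 231, Rpl5 at 213, Rps12 at 357 and Rpl27 at 319. These 5 were all among the 8 core genes of which copies held over 50 percent of the combined counts.

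The annotated starts of the members were looked at for the pyrimidine run of TOP mRNAs. RefSeq starts (GRCm38.p6) were matched for 67 of the 92 members. A C followed by at least 4 bases that are C or T was searched for on the strand of the gene. A gene can have several annotated starts, and the 57 core genes among those matched had 67 starts. The run stood exactly at the start in 13 of these 67 starts (19.4%). This compares with 2.51% of all 32851 starts and 0 of 75 starts of mitochondrial ribosomal protein genes. Within 10 bases of the start it was found in 53.7% of core starts, 41.3% of the mitochondrial ones and 30.7% of all. The letters CTTCC or GGAAG occurred within the 300 bases around 92.5% of core starts and 71.4% of all. Annotated starts are often off by some bases, and a match is a description only.

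The starts of genes on which the results turn are shown with 25 bases before and 25 from the start on, the longest such run within 10 bases of the start in capitals. They are shown for genes named above and for Rps6 and Rps28, core genes with and without such a run. Rps28 had the library pattern of the core, with deviations of -0.56 in A7, 0.45 in A8 and 0.44 in A24. The regions are chr4:86857343-86857392 (minus strand) for Rps6, the substrate of the S6 kinases, and chr7:141447626-141447675 (plus strand) for Rplp2. They are chr14:24490653-24490702 (plus strand) for Rps24, chr17:24727801-24727850 (plus strand) for Rpl3l, and chr17:33824538-33824587 (minus strand) for Rps28.
Rps6: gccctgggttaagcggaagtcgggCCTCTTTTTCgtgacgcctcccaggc
Rplp2: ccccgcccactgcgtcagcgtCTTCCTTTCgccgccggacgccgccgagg
Rps24: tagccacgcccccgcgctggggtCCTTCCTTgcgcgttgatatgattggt
Rpl3l: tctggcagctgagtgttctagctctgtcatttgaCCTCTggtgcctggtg
Rps28: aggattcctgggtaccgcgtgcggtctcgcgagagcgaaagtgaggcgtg
The run has 10 bases in Rps6, 9 in Rplp2, 8 in Rps24, 5 in Rpl3l and 0 in Rps28. Rps24 and Rpl3l each have a further annotated start downstream without such a run, which is not shown.

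Other TOP mRNAs gave a single call. Of 19 other TOP mRNAs tested, 9 had positive and 10 negative values, with a median of -0.02. Past the threshold was 1, in edgeR (0.707% of all genes) as in DESeq2 (5.54%) and voom (1.06%). This was Nap1l1, a histone chaperone, at 68.1, 46.4 and 71.4 CPM in A7, A8 and A12. It stood at 34.3, 25.3, 24.1, 28.6 and 34.1 CPM in A24, A25, A26, A29 and A31. All HuR KO values lay below all WT values (6.09% of all genes), with a log2 fold change of -1.08 (SE 0.19, edgeR adjusted p = 0.0407). The adjusted p ran from 5.74e-05 to 0.167 over 30 alternatives. It stayed past the threshold without A8 (-1.25) or A24 (-1.15) and not without A7 (-1.01), A12 (-0.97), A25 (-1.04), A26 (-1.02), A29 (-1.07) or A31 (-1.15). Eif3f, an initiation factor subunit and the next by p in this list, had 0.33 (SE 0.17; adjusted p = 0.363).

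The genes that build ribosomes gave no call in edgeR's quasi-likelihood test. Of 40 assembly genes tested, 0 were past the threshold, with 6 higher and 3 lower in HuR KO at an unadjusted p under 0.05 (7.64% and 9.41% of all genes), and a median of 0.07. Nob1, the nuclease that finishes 18S rRNA, stood at 8.42, 8.43 and 8.55 CPM in A7, A8 and A12. It stood at 16.7, 11.9, 11.9, 12.2 and 13.2 CPM in A24, A25, A26, A29 and A31, above all WT values (log2 fold change 0.64, SE 0.16; edgeR adjusted p = 0.0953). Grwd1, a chaperone of Rpl3, had 0.66 (SE 0.17, edgeR adjusted p = 0.1001), also without overlap (5.37% of all genes were higher without overlap). DESeq2 called both, among 3 genes of this list (5.54% of all genes); the likelihood ratio test called 1 (4.41%) and voom 0 (1.06%). Of 14 genes of RNA polymerase I, which makes rRNA, 0 had an unadjusted p under 0.05; the median was 0.07, and 0 were called by edgeR, DESeq2 or voom. The lowest p were those of Znrd1 (0.50, SE 0.24) and Polr1b (0.38, SE 0.21).

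Regulators of TOP mRNAs and of mTOR also gave no call in that test. Of 20 tested, 2 were higher and 5 lower at an unadjusted p under 0.05 (7.64% and 9.41% of all genes), with a median of -0.14. Rps6kb1, the S6 kinase that phosphorylates Rps6, stood at 45.0, 49.0 and 50.2 CPM in A7, A8 and A12. It stood at 30.96, 32.1, 34.3, 37.6 and 34.7 CPM in A24, A25, A26, A29 and A31, all below the WT values (6.09% of all genes). The log2 fold change was -0.50 (SE 0.13, edgeR adjusted p = 0.0949). Rps6kb2, the second S6 kinase, had the opposite sign, with 9.72 ± 1.13 CPM in WT (SD, n = 3) and 13.8 ± 0.725 CPM in HuR KO (SD, n = 5). Its log2 fold change was 0.51 (SE 0.14; adjusted p = 0.113). Pdcd4, an S6 kinase substrate that inhibits Eif4a1, had -1.09 (SE 0.28; adjusted p = 0.0976) and was called by DESeq2 and by the likelihood ratio test.

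Among factors of translation itself, 0 of 36 initiation genes and 0 of 11 elongation and termination genes were past the threshold in edgeR, DESeq2 or voom. At an unadjusted p under 0.05, 2 initiation genes had lower values (9.41% of all genes) and 0 of the others did. Without A8 and A24, 1 initiation gene was called (1.33% of all genes). Medians were -0.11 and -0.08. Eif2s2, the beta subunit of eIF2, had -0.40 (SE 0.15; edgeR adjusted p = 0.219), and Eif5, which activates its GTPase, -0.42 (SE 0.17; adjusted p = 0.245). Etf1, the release factor, had -0.26 (SE 0.16), and Eef1d, an exchange factor of elongation, 0.26 (SE 0.16). The library pattern of the core was weak in these lists: the median deviation of initiation genes was 0.09 in A8 and 0.03 in A7.

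Mitochondrial ribosomal proteins, which serve a separate ribosome, had a library pattern like that of the core. The median deviation of the 78 genes was -0.35, 0.32 and -0.34 for A7, A8 and A12. The HuR KO libraries A24, A25, A26, A29 and A31 had 0.43, -0.01, -0.13, 0.07 and 0.00. The median log2 fold change was 0.21, with 60 positive and 18 negative values (7438 and 7413 for all genes). With scaling to total counts only it was 0.46, with 75 positive values, against 0.23 and 10719 for all genes. Its change on leaving out a single library is not given here. In edgeR's quasi-likelihood test 0 were past the threshold. At an unadjusted p under 0.05 in that test, 5 were higher and 1 lower (7.64% and 9.41% of all genes). The lower was Mrps6 (-0.99, SE 0.20, edgeR adjusted p = 0.0601), with no overlap between the groups (6.09% of all genes were lower without overlap). DESeq2 (5.54% of all genes) and the likelihood ratio test (4.41%) each called 1 gene of this list and voom (1.06%) 0. Mrps6 was called without A12 (-1.14) and in no other fit that left out a single library. Mrpl37 had 0.42 (SE 0.15; adjusted p = 0.182).

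Markers of other cells were given beside these values, and their part in them was not tested. Past the threshold were 0 of 7 macrophage, 0 of 8 B and T cell, 0 of 6 endothelial, 0 of 6 fibroblast, 0 of 5 erythroid, 0 of 4 Schwann cell and 0 of 11 brown adipocyte genes, in edgeR, DESeq2 and voom alike. At an unadjusted p under 0.05, the B and T cell, Schwann cell and brown adipocyte lists each had 1 gene higher in HuR KO. The fibroblast and erythroid lists each had 1 lower gene, and the other lists had 0. Of all genes 7.64% were higher and 9.41% lower. Median log2 fold changes were -0.40, 0.45, 0.21, -0.32, -0.36, 0.01 and -0.10, in the order in which the lists were first named. The summed macrophage level, led by Lyz2, was 77.9, 31.4 and 111 CPM in A7, A8 and A12. It was 99.6, 67.6, 63.9, 52.1 and 56.3 CPM in A24, A25, A26, A29 and A31. A8 had the lowest value of the 8, A12 the highest and A24 the next. The summed brown adipocyte level was highest in A8 (32617.5 CPM) and A24 (27658.7 CPM). It was lowest in A25 (15038.3 CPM) and A7 (15788 CPM). The median deviation of the fibroblast genes was 0.57, -0.79 and 0.79 in A7, A8 and A12. In A24, A25, A26, A29 and A31 that median was 0.32, 0.14, -1.07, -0.11 and -0.04. The lowest p in these lists were those of Cd14 (log2 fold change 0.55), Cd3e (1.398), Pecam1 (0.31), Col3a1 (-1.09), Alas2 (-0.72), Sox10 (0.92) and Prdm16 (0.60).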

How the data were processed

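RNA-seq of BAT from 8 libraries was used, 3 labelled WT and 5 labelled HuR KO. The authors deposited estimated counts per transcript, not normalized, with reads that fit several transcripts divided between them. The study's methods name CLC Genomics Workbench for mapping; the program that wrote the tables is not given in the sources used here. Of 105129 transcript identifiers, 103635 are in GENCODE M21 when the version number is left off, and 99505 match exactly. Counts were summed by gene symbol and rounded; 79.1% of sums were within 0.02 of a whole number.

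Genes were filtered with filterByExpr, given TMM factors, and compared by edgeR 4.0.16 in its quasi-likelihood test (limma 3.58.1, DESeq2 1.42.0, R 4.3.3), with Benjamini-Hochberg adjustment over 14851 genes. The SE given with the quasi-likelihood test is the size of the log2 fold change divided by the square root of the F statistic. The procedure was tested on simulated data. Log2 CPM used a prior count of 2, and trends on length or GC were loess fits of span 0.3 applied as offsets. TPM used annotated lengths, without a correction for fragment size. Sequences were aligned with edlib 1.3.9 in Python 3.11.15.

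The members and lists were chosen with earlier results of these data known. Named genes were members past the threshold, the 10 with the lowest p, the 6 highest and 4 lowest by TPM, all of the P stalk, 5S particle, paralog and name-only lists, and in other lists those past adjusted p 0.05 and the 2 with the lowest p. Rps6, Rps28, Rps12, Rps16, Rps20, Rpsa, Rps12l1, Rpl27, Rpl10a, Rpl37, Rpl4, Rps6kb2 and the copies were chosen after their values were seen. The alternative without A8 and A24 and those that join copies with another choice were added after seeing the data. The list of ribosomal proteins with other names is not reported here. Alternatives covered scaling, test, filter, transcripts, copies, covariate, sequence trends and libraries left out.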

Additional observations from a re-analysis of the deposited data

Results flagged for a closer look

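In 59 values, the highest or lowest of the 5 HuR KO libraries was examined for a gap to its nearest neighbour above 0.71 of the range of the group; chance flags about 1 in 20 groups, and groups of 3 were not examined. Myh2, a myosin heavy chain of muscle, stood at 3.54 CPM in A31, far above the other HuR KO libraries (gap 0.984 of the range). Nob1 stood at 16.7 CPM in A24 (0.730 of the range), and Rpl12 at 10.6 CPM in the same library (0.727 of the range).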

How the results depend on the processing

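The count of all genes past the threshold, 105, depended on the test: 823 with DESeq2's Wald test (826 with copies added), 655 with the likelihood ratio test, 317 with the length trend removed (318 with copies), 54 with the GC trend removed (55 with copies), 34 with coding transcripts only, 16 with the top transcript only, 15 with the muscle covariate, 5 without A24 and A25 (6 with copies), 4 without A7, A8 and A31 (where A12 is the only WT library, so that the fit has no spread in WT) and 202 without A8 and A24. Leaving out 1 library gave 10 to 190: 13 without A7, 190 without A12, 15 without A25, 10 without A26, 14 without A29 and 17 without A31. The causes were not tested. The alternatives that join copies with another choice, and the fit without A8 and A24, were chosen after seeing the data, the latter because both libraries stood high for the genes measured.

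Members past the threshold, and members at an adjusted p of at most 0.05 with any fold, numbered 0, but 2 with DESeq2, the likelihood ratio test or the length trend removed, 1 with copies added and DESeq2 and 1 with copies added and the length trend removed. Leaving out 1 library gave 0 to 1, the 1 without A12. At an adjusted p of at most 0.1, 2 members passed, against 3.31% of all genes. The median log2 fold change of members ran from -0.11 to 0.38 over 30 alternatives, 6 of them negative, with -0.09 (without A7) to 0.38 (without A8) on leaving out 1 library. The difference in the percent of counts, 0.233 points, ran from 0.175 (without A12) to 0.333 (without A8).

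Changes of sign are given for the 64 genes followed, none of which was past the threshold where its sign changed. With total counts only: Rpl17 0.0495, Rpl36al 0.24, Rpl4 0.20, Rpl7l1 0.16, Rplp0 0.21, Rps29 0.29, Ucp1 0.13. -ps names added: Rpl10 -0.0229, Rpl27 0.15. Without A7, A8 and A31, with A12 as the only WT library: Cdh5 -0.15, Rpl36al 0.37, Rpl3l 0.74, Rplp0 0.11, Rps29 0.51. Without A8 and A24: Rpl17 0.0212, Rpl36al 0.29, Rpl4 0.0278, Rps29 0.42. Without A24 and A25: Gm15500 -0.0647, Rpl12 -0.0541, Rpl13 -0.32, Rpl39 -0.15, Rpl41 -0.24, Rps12 -0.32, Rps27l -0.28. Copies without A24 and A25: Rpl10 -0.0714, Rpl12 -0.0367, Rpl13 -0.00452, Rpl39 -0.15, Rpl41 -0.24, Rps12 -0.0901, Rps27l -0.28. Muscle covariate: Rpl36al 0.16, Rpl4 0.0368, Rplp0 0.0169, Rps27l -0.0692, Rps29 0.25. Voom: Rpl36al 0.14, Rpl4 0.00481, Rps29 0.25. Copies: Rpl10 -0.0233, Rpl27 0.0766, Rps29 0.048. Copies with DESeq2: Rpl10 -0.0248, Rpl27 0.0754, Rps27rt -0.11, Rps29 0.0454. Copies with GC trend removed: Rpl10 -0.0264, Rpl12 -0.00302, Rpl27 0.0618, Rpl4 0.0219, Rpl41 -0.0166, Rpl5 0.11, Rps29 0.0116. Copies with length trend removed: Rpl10 -0.0984, Rps12 -0.00165, Rps27l -0.075, Rps29 0.0181. DESeq2: Rps27rt -0.11. Likelihood ratio test: Rps27rt -0.0854. Length trend removed: Gm15500 -0.0254, Rps12 -0.0436, Rps27l -0.0828. GC trend removed: Rpl4 0.0188, Rpl41 -0.016. Coding transcripts only: Rpl12 -0.59. Top transcript only: Pecam1 -0.0941, Rpl41 -0.0242, Rps12 -0.37, Rps27rt -0.034.

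Leaving out 1 library turned the sign in these genes among those followed, with ranges of Gm15500 -0.13 to 0.25, Rpl11 -0.00406 to 0.57, Rpl12 -0.0288 to 0.24, Rpl13 -0.0467 to 0.47, Rpl17 -0.40 to 0.0827, Rpl23a -0.0458 to 0.61, Rpl27 -0.50 to 0.0883, Rpl36al -0.23 to 0.39, Rpl39 -0.0714 to 0.50, Rpl39l -0.0664 to 0.98, Rpl4 -0.11 to 0.0688, Rpl41 -0.0903 to 0.36, Rplp0 -0.16 to 0.0948, Rps12 -0.26 to 0.49, Rps27l -0.23 to 0.40, Rps27rt -0.55 to 0.43, Rps29 -0.21 to 0.52 and Ucp1 -0.41 to 0.14. With 3 and 5 libraries, a missing call does not show that a gene did not differ.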

Other observations

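For some members most counts sat in transcripts that the annotation does not class as coding. This held for 6 core genes at under 50 percent coding. In Rpsa, the laminin receptor precursor of the small subunit, 72.8% of the counts were in a transcript of 1101 bases annotated for nonsense-mediated decay, and 19.8% were in coding transcripts. In Rps16, transcripts annotated as retained introns held 48.0% and 39.3%, and coding ones 12.6%. In Rps20 a retained-intron transcript of 582 bases held 49.8%.

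Rps12l1, a retrocopy on chr7 whose words all occur in Rps12 transcripts, stood at 1.23, 19.7 and 7.33 CPM in A7, A8 and A12. It stood at 6.09, 0, 0, 0.644 and 12.2 CPM in A24, A25, A26, A29 and A31. Libraries of both labels were near 0 and well above it (log2 fold change -1.30, SE 1.399; edgeR adjusted p = 0.690).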
